A study of Mus musculus with 20 samples.

Results

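Androgen and glucocorticoid signaling in prostate tumor cells was followed here through 8 named genes. Nr3c1 encodes the glucocorticoid receptor. Foxa1 and Hoxb13 encode transcription factors that share chromatin with the androgen receptor. Fkbp5 is a target of both receptors. Tmprss2, Pmepa1 and Pbsn are targets of the androgen receptor, and Tsc22d3 is a target of the glucocorticoid receptor. They were chosen by name and matched by mouse symbol to Entrez identifiers, out of 17104 genes listed in the 3 expression tables. Of the 8 members, 7 were listed for Naive and Resist tumors and 6 for each macrophage-depleted group, and 4 were expressed highly enough for a test across genes.

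The cells were MycCaP-Bo, a single bone-homing derivative of the mouse prostate cancer line MycCaP, which comes from the HiMyc mouse, in which a promoter derived from probasin drives MYC in the prostate. They were grown as bone metastases in mice injected at 4 to 6 weeks of age, and sorted as CD45- iRFP+ cells. Each of 4 groups had 5 RNA-seq libraries, each from the pooled cells of 3 mice. Naive tumors received vehicle. Resist tumors received enzalutamide, an androgen receptor antagonist, at 30 mg/kg by daily gavage for 18 d. Resist-Mac tumors received the same enzalutamide plus clodronate liposomes, which deplete phagocytic macrophages, at 1 mg per mouse in the last 4 d. Naive-Mac tumors received clodronate liposomes at the same dose without enzalutamide, for a time that is not given in the sources used here. Naive and Resist libraries are batch 1 in the labels, Resist-Mac libraries batch 2 and Naive-Mac libraries batch 3, so that batch and condition cannot be told apart in any comparison other than Resist vs. Naive.

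As background, the androgen and glucocorticoid receptors are ligand-activated transcription factors of the same family that recognize closely similar DNA elements, and a set of genes responds to both. FOXA1 opens chromatin to the androgen receptor, HOXB13 binds with it at prostate enhancers, and glucocorticoid receptor activity is a known route by which prostate cancer cells keep part of the androgen program active under antiandrogens. FKBP5 is a cochaperone of HSP90 that takes part in receptor folding, and its induction is a common readout of either receptor.

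The stretch just upstream of the start site was read for 5 of 8 members, from a RefSeq promoter table. Hoxb13 and Pmepa1 had no entry in it, and Nr3c1 was not searched. One element through which the receptors bind direct targets is an inverted repeat, whose letters were searched as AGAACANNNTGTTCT on both strands. Its hexamer AGAACA, or TGTTCT on the other strand, was searched as well. The 3 windows printed here are those of a target of both receptors, a glucocorticoid target and a prostate secretory gene. Each holds 250 bases in build GRCm38.p6, written 5′ to 3′ on the gene's minus strand, with any hexamer in capitals.
Fkbp5, chr17:28486150-28486399: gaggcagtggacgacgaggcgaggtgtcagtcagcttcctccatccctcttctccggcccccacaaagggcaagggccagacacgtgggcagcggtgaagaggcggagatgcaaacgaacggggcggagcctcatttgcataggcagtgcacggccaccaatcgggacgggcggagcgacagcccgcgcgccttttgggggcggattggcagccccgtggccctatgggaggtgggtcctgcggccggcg
Tsc22d3, start site 2, chrX:140600523-140600772: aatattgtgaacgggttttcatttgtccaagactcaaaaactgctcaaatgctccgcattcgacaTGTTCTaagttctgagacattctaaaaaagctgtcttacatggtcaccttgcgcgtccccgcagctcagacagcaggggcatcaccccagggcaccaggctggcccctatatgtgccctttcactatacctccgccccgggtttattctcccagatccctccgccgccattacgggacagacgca
Pbsn, chrX:77853501-77853750: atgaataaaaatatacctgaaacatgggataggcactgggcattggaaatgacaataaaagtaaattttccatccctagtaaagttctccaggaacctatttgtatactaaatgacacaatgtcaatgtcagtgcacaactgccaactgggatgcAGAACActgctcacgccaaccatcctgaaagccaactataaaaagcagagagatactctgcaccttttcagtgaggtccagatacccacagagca
The Pbsn window held the hexamer once, starting at base -95 from the start site. One of the 3 Tsc22d3 start sites held it once, at base -185. The Fkbp5, Foxa1 and Tmprss2 windows and the other Tsc22d3 start sites held none. Of 32851 promoters in the table, 16.1% held the hexamer and 0.00913% the whole element, which none of the windows searched held. The forkhead motif TGTTTAC, or GTAAACA on the other strand, was in the Foxa1 window and in 3.17% of all promoters. These are matches of letters only, and a receptor element that departs from the letters searched would be missed.

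Expression was given as FPKM, a measure of sequenced fragments relative to a transcript's length and a library's total, so that levels can be set side by side between genes. The tables hold no read counts, which leaves the libraries' depth unknown. Between 12087 and 14056 genes per library were above 0. Comparisons across genes used limma on log2(FPKM + 1), on which scale the changes of low genes are understated, for genes that averaged at least 1 FPKM in the libraries being compared. A call needed a p under 0.05 after Benjamini-Hochberg adjustment together with a change of more than 1.5-fold. P-values measure the spread between libraries of pooled mice. These are bulk libraries, in which fewer cells of a type and less RNA per cell cannot be told apart.

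Some markers of prostate epithelium were high in the sorted cells, and others were near 0 FPKM or not listed. Krt8, a luminal keratin, averaged 317 FPKM in Naive and 190 in Resist tumors, and the claudin Cldn3 averaged 363 and 254 FPKM. The E-cadherin gene Cdh1 and Krt18, the usual partner of Krt8, were at most 0.23 FPKM in every library of all groups. Epcam was not listed except in Naive-Mac, where it reached 0.05 FPKM. The quantification tool and annotation are not given, and their part in these low values was not tested. The summed FPKM of 10 epithelial markers was 624 to 914 in Naive, 345 to 618 in Resist, 420 to 625 in Resist-Mac and 860 to 1158 in Naive-Mac libraries. Blood cell markers were also present despite the sort. The sum of 12 neutrophil markers, led by S100a8 and S100a9, had a median of 459 FPKM in Naive, 225 in Resist, 2476 in Resist-Mac and 3873 in Naive-Mac tumors. Single libraries ran from 59 to 8802 FPKM. Macrophage markers summed to 2.12 to 12.9 FPKM over all libraries. The highest gene of that sum in every group was Mertk, with a mean of 6.88 FPKM in Resist. Mertk is also among the androgen response genes read below, and which cells it came from was not tested.

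The members covered a wide range of levels. Fkbp5 was the highest and ranked 210 among 16733 genes by mean FPKM in Naive tumors. Tsc22d3 ranked 543, Foxa1 910 and Hoxb13 8751 in the same tumors. Nr3c1, Pmepa1 and Tmprss2 averaged under 0.3 FPKM in every group that lists them, and Pbsn was listed in no table.

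**Figure D1:**
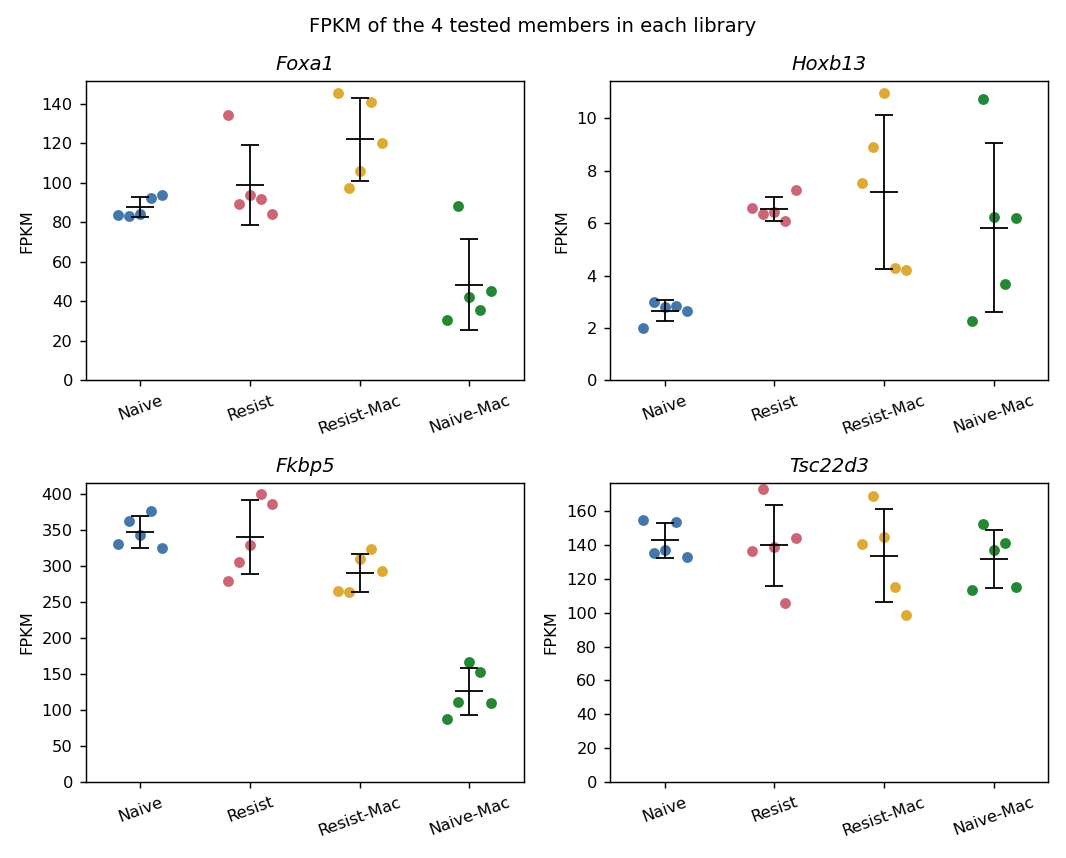
FPKM of Foxa1, Hoxb13, Fkbp5 and Tsc22d3 (linear axes from 0) in the 5 libraries of each group, one point per library, with the mean and SD. Hoxb13 separates Naive from Resist libraries, Fkbp5 is lower in every Naive-Mac library than in any other library, and Tsc22d3 overlaps in all groups.

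The question of the first comparison was which genes differ between enzalutamide-resistant and untreated tumors. Hoxb13 was the tested member that was called, at a higher level in Resist. Hoxb13, a homeobox gene of the prostate lineage, measured 1.99, 3.00, 2.81, 2.85 and 2.66 FPKM in the 5 Naive libraries and 6.59, 6.35, 6.41, 6.07 and 7.27 FPKM in the 5 Resist libraries. Every Resist library was above every Naive library, with more than 3 FPKM between the groups. The means were 2.66 ± 0.395 and 6.54 ± 0.450 (SD, n = 5), a 2.46-fold difference in FPKM. On the log2(FPKM + 1) scale the change was 1.05 (SE 0.10, 95% interval 0.84 to 1.25), with a limma adjusted p of 6.74e-05. By size of change it ranked 171 among the 531 genes called higher in Resist. It was the single member called of 4 tested, beside 6.35% of all 10119 genes tested (5.25% higher and 1.11% lower), and its groups did not overlap, as for 12.8% of those genes. All 4 of the tested epithelial markers had a lower mean log2 level in Resist, and Cldn4 was called lower. None of 9 tested neutrophil markers was called by limma, but none was higher in Resist on average, and their median log2 change was -0.91. Erythroid markers were higher in Resist, with a median sum of 165 FPKM against 107 in Naive, and Hba-a1, the one tested, was called higher (log2 change 0.78, limma adjusted p = 0.0245). Their part in the Hoxb13 values was not tested.

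Foxa1, a forkhead factor that opens chromatin for steroid receptors, did not pass the test. It measured 83.79, 83.32, 84.22, 92.33 and 93.68 FPKM in Naive and 134.43, 89.43, 93.76, 91.69 and 84.10 FPKM in Resist libraries. All Resist libraries except the first and the third lay within the Naive range, and the third lay just above it. The log2 change was 0.15 (SE 0.11, 95% interval -0.08 to 0.39, limma adjusted p = 0.343), and it was 0.04 without the first Resist library.

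Fkbp5, the target of both receptors, kept a high level in tumors under enzalutamide. Its values were 330.03, 362.46, 342.57, 376.26 and 324.51 FPKM in Naive and 279.95, 305.68, 328.81, 400.21 and 386.33 FPKM in Resist libraries. The Resist libraries spread to both sides of the Naive ones. The means of 347 ± 21.8 and 340 ± 51.7 FPKM (SD, n = 5) differed by -0.04 in log2 units (SE 0.10, limma adjusted p = 0.798), and its 95% interval of -0.25 to 0.17 leaves out a change of 1.5-fold either way.

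Tsc22d3, which encodes the glucocorticoid-induced leucine zipper protein, measured 154.81, 135.14, 137.13, 153.35 and 132.85 FPKM in Naive libraries. In Resist libraries it measured 136.57, 173.05, 138.57, 105.98 and 144.31 FPKM, so that the Resist range enclosed the Naive one. The log2 change was -0.04 (SE 0.11, 95% interval -0.28 to 0.19, limma adjusted p = 0.802).

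**Figure D2:**
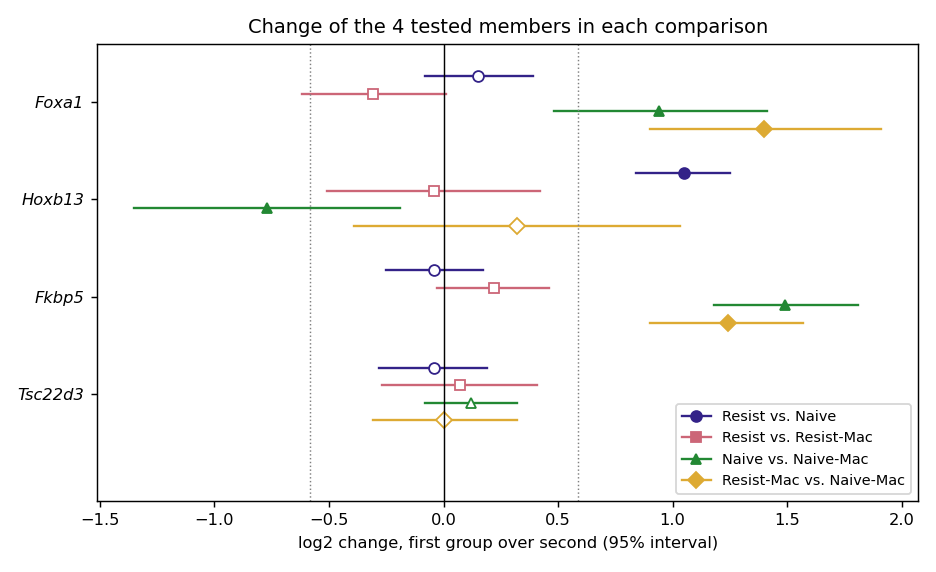
Log2 change (first group over second, on log2(FPKM + 1)) with its 95% interval for the 4 tested members in 4 comparisons. Filled points were called, open points were not, and dotted lines mark a 1.5-fold change. In Resist vs. Naive only Hoxb13 is filled, at 1.05.

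The androgen targets other than Fkbp5 were near or at 0. Pmepa1, which encodes a membrane adaptor induced by androgens and by TGF-β, measured 0.08, 0.19, 0.10, 0.14 and 0.10 FPKM in Naive and 0.34, 0.13, 0.44, 0.22 and 0.23 FPKM in Resist libraries. The groups overlapped, since the second Resist library lay below Naive libraries 2 and 4. The Resist mean was 2.23-fold higher, at 0.272 ± 0.120 against 0.122 ± 0.0438 FPKM (SD, n = 5), with an unadjusted p of 0.0238 in an exact two-sided permutation test, 1 of 9 such tests on low members. Tmprss2, a transmembrane serine protease gene of the prostate, was listed at 0 in all Naive libraries and in all Resist libraries except the fourth, which had 0.05 FPKM. It was not listed in either depleted group. Pbsn, the probasin gene of the rodent prostate, was listed in no group.

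Nr3c1, the glucocorticoid receptor gene, was also low. Its values were 0.22, 0.03, 0.01, 0.03 and 0.04 FPKM in Naive and 0.04, 0.00, 0.17, 0.16 and 0.05 FPKM in Resist libraries. The difference in means was 0.018 FPKM (exact two-sided permutation test, p = 0.857). In Resist-Mac libraries it measured 0.53, 0.01, 0.12, 0.18 and 0.39 FPKM, and in Naive-Mac libraries 0.03, 0.00, 0.32, 0.11 and 0.03 FPKM. Each group thus held at least one library at or below 0.01 FPKM, while its highest library reached 0.17 to 0.53 FPKM. The 3 comparisons with depleted groups gave exact two-sided permutation p-values of 0.183 (Resist vs. Resist-Mac), 0.683 (Naive vs. Naive-Mac) and 0.222 (Resist-Mac vs. Naive-Mac).

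Neutrophil markers were high in the libraries with the most Nr3c1, with exceptions in both depleted groups. In Naive tumors the library at 0.22 FPKM had a marker sum of 1277 FPKM, and the others had 177 to 568. In Resist-Mac tumors the libraries at 0.53 and 0.39 FPKM had marker sums of 8802 and 4903 FPKM, but the library at 0.12 had the lowest sum of the group, 407 FPKM, below the 1000.2 FPKM of the library at 0.01. In Naive-Mac tumors the library at 0.32 FPKM had the highest sum of its group, 6170 FPKM, and the library at 0.00 the lowest, 59 FPKM, although another with a sum of 4883 FPKM had 0.03 FPKM of Nr3c1. In Resist tumors the libraries at 0.17 and 0.16 FPKM had sums of 491 and 607 FPKM, against 61.9 to 225 in the other libraries. Markers of T and NK cells were highest in those same 2 Resist libraries, at 1.34 and 1.28 FPKM summed, and in the Naive and Resist-Mac libraries with the most Nr3c1, at 1.44 and 8.63 FPKM. In Naive-Mac tumors they were highest in a library with 0.03 FPKM of Nr3c1, at 6.45 FPKM summed, and stood at 5.98 FPKM in the library with the most Nr3c1. Markers of B cells were highest in the library with the most Nr3c1 in each group. Their sums there were 1.45 FPKM in Naive, 2.7 in Resist, 7.99 in Resist-Mac and 5.53 in Naive-Mac. A Naive library with 0.01 FPKM of Nr3c1 had a similar sum, 1.35 FPKM. The part of any of these cells in the Nr3c1 values was not tested.

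**Figure D3:**
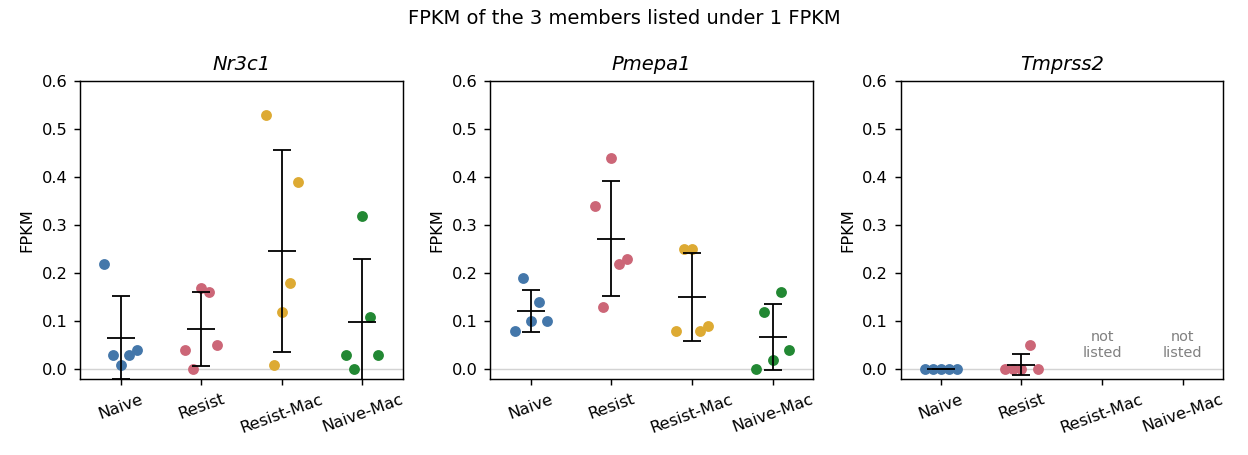
FPKM of Nr3c1, Pmepa1 and Tmprss2 in the 5 libraries of each group (linear axis, one point per library, with the mean and SD). All values lie below 0.6 FPKM, and Tmprss2 is above 0 in 1 Resist library, at 0.05.

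**Figure D4:**
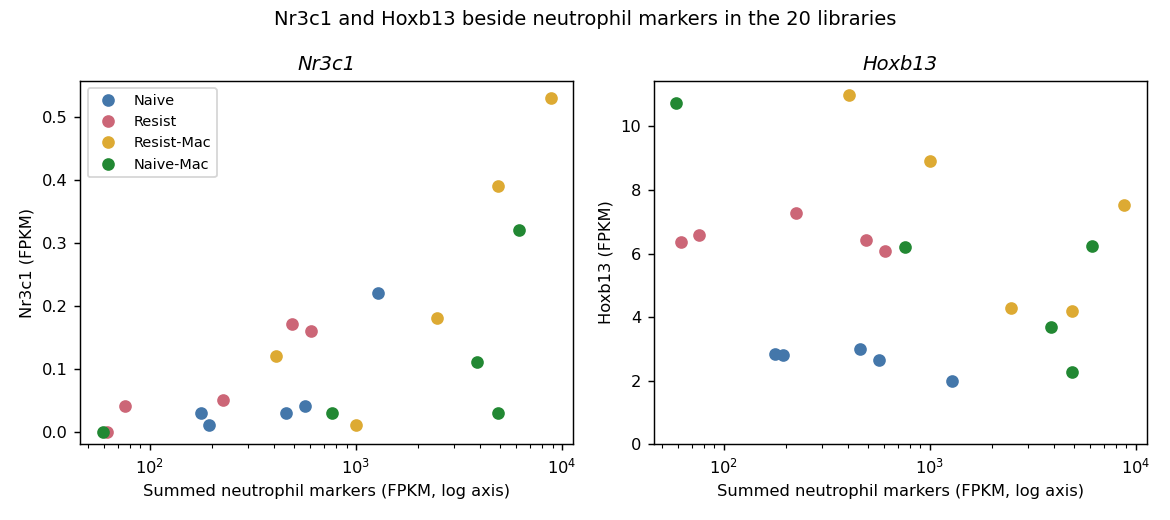
FPKM of Nr3c1 and Hoxb13 (linear axes) against the summed FPKM of neutrophil markers (log axis) in the 20 libraries, one point per library. Nr3c1 reaches 0.53 FPKM in the library with the highest marker sum. Hoxb13 does not overlap between Naive and Resist libraries, and their marker sums do. The part of neutrophils in either gene's values was not tested.

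The pathway around the members was read in fixed lists that hold none of them, written with earlier results of these data known. Of 95 genes of the androgen response, 79 were tested in Resist vs. Naive. Of these, 7 were called higher and 3 lower, beside 5.25% and 1.11% of all genes tested. Their median log2 change was 0.03, as it was over all genes. Idi1 and Insig1 were among the lower genes. Idi1, an isoprenoid isomerase, averaged 24.5 ± 1.76 FPKM in Naive and 13.5 ± 3.87 in Resist (log2 change -0.85, limma adjusted p = 0.0035). Insig1, a regulator of sterol synthesis, changed by -0.78 on the log2 scale (limma adjusted p = 0.00579).

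The largest rises of the androgen response list were of other functions. Steap4, a metalloreductase gene, averaged 12.5 ± 3.25 FPKM in Naive and 40.4 ± 13 in Resist tumors (SD, n = 5), equal to 1.59 in log2 units (SE 0.23, limma adjusted p = 0.000932). Zmiz1, a coactivator gene, changed by 1.05 (limma adjusted p = 0.00122) and the transcription factor gene Maf by 0.85 (limma adjusted p = 0.00776). Of 15 secretory genes of the mouse prostate, only 3 were expressed highly enough to be tested. Apof, which encodes an apolipoprotein, rose from 4.01 ± 1.01 to 10.3 ± 5.95 FPKM (log2 change 1.03, limma adjusted p = 0.0412).

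Of 25 genes of the glucocorticoid response, 23 were tested in Resist vs. Naive. Of these, 1 was called higher and 3 lower, beside 5.25% and 1.11% of all genes tested. Their median log2 change was -0.04, against 0.03 over all genes. The metallothionein genes Mt1 and Mt2, which bind zinc and copper and respond to metals as well as to glucocorticoids, fell together. Mt1 averaged 1167 ± 57.7 FPKM in Naive and 580 ± 76.9 in Resist tumors (log2 change -1.02, limma adjusted p = 4.94e-05), and Mt2 averaged 1384 ± 109 and 701 ± 150 FPKM (limma adjusted p = 0.000366). Errfi1, a feedback inhibitor of EGFR, changed by -0.76 (limma adjusted p = 0.0252). Pdk4, a kinase that restrains pyruvate dehydrogenase, rose from 2.88 ± 0.774 to 7.26 ± 1.42 FPKM (log2 change 1.09, limma adjusted p = 0.00115).

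Of 18 chaperones and coregulators of the receptors, none was called in Resist vs. Naive by limma, beside 6.35% of all genes tested. None of the 7 tested genes of the wider steroid receptor family was called. The most abundant chaperones were Hsp90ab1, with a log2 change of -0.01 (limma adjusted p = 0.939), and Hsp90aa1, with -0.25 (limma adjusted p = 0.023), which was past the p but under the fold change. Among the receptors, Esrra and Vdr changed by -0.17 and -0.10 (limma adjusted p = 0.256 and 0.506). Of 9 tested lineage factors of luminal and posterior epithelium, Gata3 was the one called, beside the same 6.35% of all genes tested. It rose from 7.47 ± 2.19 to 15.2 ± 1.70 FPKM (SD, n = 5), equal to 0.97 in log2 units (SE 0.15, limma adjusted p = 0.0013), and the groups did not overlap, at 5.32 to 11.03 and 13.64 to 18.02 FPKM.

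**Figure D5:**
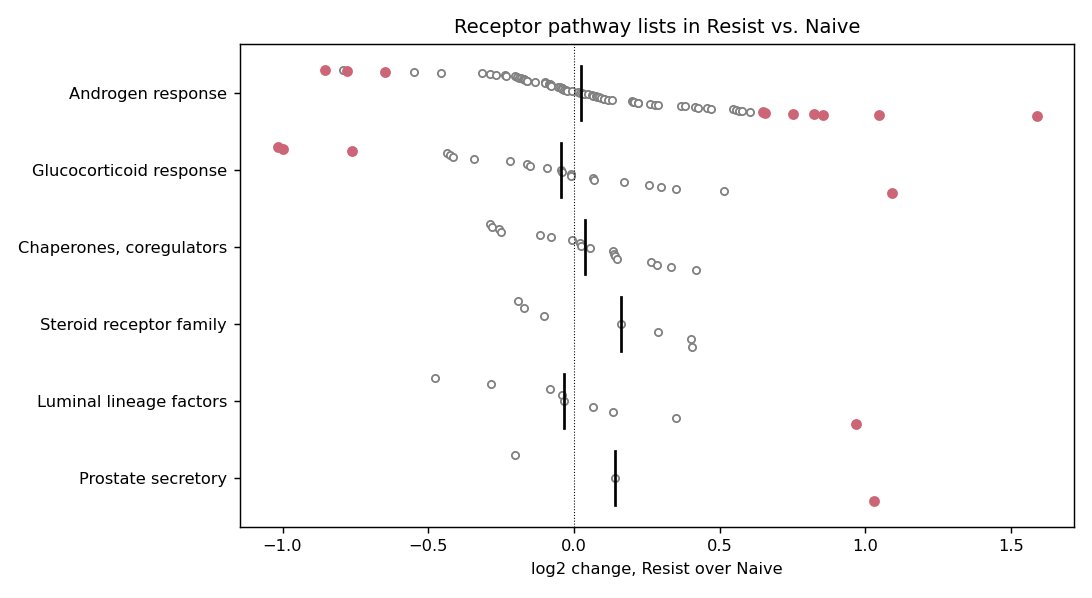
Log2 change in Resist over Naive of each tested gene of 6 receptor pathway lists, one point per gene, with called genes filled and the list's median as a vertical line. The medians lie between -0.04 and 0.16, and called genes lie on both sides of 0 in the androgen and glucocorticoid response lists.

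The genes most like each member over the 10 Naive and Resist libraries were ranked by Pearson correlation of log2(FPKM + 1) among 10053 genes, as a description. These libraries share the difference between their groups and were normalized in one table. The 3 genes nearest to Hoxb13 were Syde2 (r = 0.979), Slc16a7 (r = 0.975) and Flnc (r = 0.966), and their mean FPKM was higher in Resist, at 4.71, 1.92 and 23.7 against 0.992, 0.35 and 6.87 in Naive. Nearest to Foxa1 were Uvrag (r = 0.911), Avpi1 (r = 0.910) and Pwwp2b (r = 0.907), of which Avpi1 had a rank correlation of only 0.418. Ggct, Prkaa2 and Zdhhc23 were nearest to Fkbp5 (r = 0.955, 0.941 and 0.940), and Rpl36a, Morf4l1-ps1 and Gabarapl2 to Tsc22d3 (r = 0.962, 0.913 and 0.887).

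Resist vs. Resist-Mac addressed short depletion of macrophages under enzalutamide, and no member was called, beside 21.7% of 10049 genes tested (9.71% higher and 12% lower in Resist), while 29.7% of these genes did not overlap between the groups. In Resist-Mac libraries Foxa1 measured 145.40, 97.31, 106.05, 140.87 and 120.25 FPKM and Fkbp5 265.94, 263.41, 309.79, 323.32 and 292.72 FPKM. Both overlapped the Resist libraries. The log2 changes, Resist over Resist-Mac, were -0.31 for Foxa1 (95% interval -0.62 to 0.01, limma adjusted p = 0.107) and 0.22 for Fkbp5 (95% interval -0.03 to 0.46, limma adjusted p = 0.142). With quantile normalization Fkbp5 was called higher in Resist, at 0.74 (limma adjusted p = 0.00102).

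Hoxb13 stayed at the level of Resist tumors on average but varied more. It measured 7.53, 8.92, 10.98, 4.30 and 4.20 FPKM in Resist-Mac libraries, on both sides of the Resist range of 6.07 to 7.27. The log2 change was -0.04 (SE 0.21, 95% interval -0.51 to 0.42, limma adjusted p = 0.891). The highest Hoxb13 library of this group had the lowest neutrophil marker sum, 407 FPKM, and the libraries at 4.30 and 4.20 had 2476 and 4903 FPKM, while the library with the highest sum, 8802 FPKM, had 7.53 FPKM of Hoxb13. Resist-Mac libraries 2 and 3 also share a string in their deposited names, as do libraries 4 and 5, and its meaning is not given in the sources used here. Hoxb13 split by it, at 8.92 and 10.98 FPKM against 4.30 and 4.20 FPKM. Correlations on the log2 scale were taken over genes with at least 1 FPKM in either library of a pair. Libraries of the same string correlated at 0.987 and 0.983, and other pairs of the group at 0.959 to 0.977. The part of these cells and of the string was not tested, and the string and the marker level cannot be told apart here. Tsc22d3 measured 140.59, 169.22, 144.78, 114.92 and 98.77 FPKM in Resist-Mac libraries, which split by the same string, with a log2 change of 0.07 (95% interval -0.27 to 0.41, limma adjusted p = 0.737). Pmepa1 was at 0.08 to 0.25 FPKM (exact two-sided permutation test against Resist, p = 0.111).

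Around the members, Resist vs. Resist-Mac gave 16 androgen response genes higher and 5 lower in Resist of 78 tested. Of 25 glucocorticoid response genes, 3 were higher and 6 lower. Over all genes tested, 9.71% were higher and 12% lower. The medians of these lists were 0.04 and -0.01 on the log2 scale, against -0.02 over all genes. Mertk, the highest gene of the macrophage marker sum, was among the 16 (log2 change 1.02). Zbtb16, a zinc finger gene induced by glucocorticoids, averaged 17.0 FPKM in Resist and 5.54 in Resist-Mac (log2 change 1.43, limma adjusted p = 0.000289). Lcn2, a neutrophil granule and epithelial iron-binding protein gene, averaged 45.3 and 173 FPKM (log2 change -1.63, limma adjusted p = 0.0189), with 8 of 12 neutrophil markers also called lower in Resist. Of 18 chaperones and coregulators, 9 were higher and 2 lower in Resist. The coregulator genes Nrip1, Ep300 and Crebbp were higher, by 1.27, 0.94 and 0.90 on the log2 scale, and the chaperone gene Hspa8 was lower, by -1.38 (limma adjusted p = 0.00357, 0.0009, 0.00163 and 5.58e-06). Of 7 tested steroid receptor genes, Esr1 and Vdr were higher and Esrra lower. Of 10 lineage factors, Grhl2 and Klf5 were higher.

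Naive vs. Naive-Mac compared batch 1 with batch 3, and 59.7% of 9837 genes tested were called (37.5% were higher in Naive and 22.1% lower), with a median log2 change of 0.23 over all genes. Fkbp5 was lower in Naive-Mac tumors, at 88.15, 111.58, 167.11, 152.42 and 110.13 FPKM. Every Naive-Mac library was below the lowest Naive library, at 324.51 FPKM. The Naive mean was 2.76-fold higher, or 1.49 on the log2 scale (SE 0.15, 95% interval 1.18 to 1.81, limma adjusted p = 5.98e-07). Once transcript length and GC content were corrected for, the change was 1.13, with median-ratio scaling it was 1.18, and with quantile normalization it was 2.25.

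Foxa1 was also lower in Naive-Mac tumors in all libraries but one. It measured 30.42, 88.16, 42.15, 35.56 and 45.17 FPKM, and the second library lay within the Naive range. The log2 change was 0.94 (SE 0.21, 95% interval 0.48 to 1.41, limma adjusted p = 0.0012), and it was 1.18 without that library. Hoxb13 moved the other way, at 2.26, 10.74, 6.23, 3.69 and 6.20 FPKM in Naive-Mac libraries, of which all except the first exceeded the highest Naive library. The Naive-Mac mean was 2.19-fold higher, with a log2 change of -0.77 for Naive over Naive-Mac (SE 0.27, limma adjusted p = 0.0182). This call was lost after the correction for length and GC content (-0.36, limma adjusted p = 0.262) and without the second Naive-Mac library (-0.54), while the change was larger with median-ratio scaling (-1.01), with quantile normalization (-1.38) and without the first Naive-Mac library (-1.01).

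The second Naive-Mac library had both the highest Foxa1 and the highest Hoxb13 of its group, and its neutrophil marker sum was 59 FPKM against 762 to 6170 FPKM in the others, a difference whose part in these values was not tested. Naive-Mac libraries 1 and 4, which share a string in their names, had the lowest Foxa1 and Hoxb13 of the group. Together, 3 of the 4 tested members were called in Naive vs. Naive-Mac, and Fkbp5 was the one whose groups did not overlap, as in 66% of all genes tested. Tsc22d3 measured 113.65, 152.41, 136.76, 141.28 and 114.96 FPKM in Naive-Mac libraries, overlapping the Naive ones. Its log2 change was 0.12 (95% interval -0.08 to 0.32, limma adjusted p = 0.257), but -0.20 with median-ratio scaling and 0.72 with quantile normalization, where it was called. Pmepa1 was at 0.00 to 0.16 FPKM (exact two-sided permutation test, p = 0.198).

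Resist-Mac vs. Naive-Mac compared enzalutamide with no enzalutamide in depleted tumors, in batch 2 against batch 3, and the calls covered 46.2% of the 9760 genes tested, with 37.2% higher and 9% lower in Resist-Mac, and 47.8% did not overlap. Of the 4 tested members, Foxa1 and Fkbp5 were called, both higher in Resist-Mac and without overlap between the groups. Foxa1 was 2.53-fold higher (log2 change 1.40, SE 0.23, 95% interval 0.90 to 1.91, limma adjusted p = 0.000171). Fkbp5 was 2.31-fold higher (log2 change 1.24, SE 0.16, 95% interval 0.90 to 1.57, limma adjusted p = 2.02e-05). With median-ratio scaling these changes were 0.95 and 0.78, with quantile normalization 1.46 and 1.56, and both genes stayed called. Over all genes the median log2 change was 0.34. Hoxb13 changed by 0.32 (95% interval -0.39 to 1.03, limma adjusted p = 0.421), which turned to -0.06 with median-ratio scaling and -0.35 with quantile normalization. Tsc22d3 changed by 0.00 (95% interval -0.31 to 0.32, limma adjusted p = 0.979), and Pmepa1 had an exact two-sided permutation p of 0.167.

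Apart from the prostate secretory list, the lists around the members held more genes called lower than higher in Naive-Mac tumors in both comparisons. The same held over all genes, with 37.5% higher and 22.1% lower in Naive, and 37.2% higher and 9% lower in Resist-Mac. The medians of all genes also lay above 0. With median-ratio scaling the calls over all genes became 2862 higher and 3073 lower, and 2165 and 2293. The lists were not counted again with such scaling, so whether their lean stays under it was not tested. Against Naive, 33 androgen response genes were higher in Naive and 13 lower of 78 tested (median 0.44), and 11 glucocorticoid response genes were higher and 1 lower of 23 (median 0.55). Adamts1, a secreted metalloprotease gene, was at a mean of 29.3 FPKM in Naive tumors and 3.23 FPKM in Naive-Mac tumors (log2 change 2.90, limma adjusted p = 5.49e-08), and Zbtb16 averaged 16.5 and 1.52 FPKM (log2 change 2.83, limma adjusted p = 4.57e-09). Of 18 chaperones and coregulators, 13 were higher in Naive and 2 lower. The acetyltransferase gene Ep300 fell from 14.6 to 0.846 FPKM in Naive-Mac tumors (log2 change 3.10, limma adjusted p = 7.84e-10), whereas the chaperone genes Hspa8 and Bag1 were higher there (-1.21 and -0.80 for Naive over Naive-Mac, limma adjusted p = 4.22e-08 and 6.19e-08). Of 9 tested lineage factors, 8 were higher in Naive, with Grhl2, Klf5 and Ehf at 2.65, 2.01 and 1.89 on the log2 scale. Of 7 steroid receptor genes, 6 were higher and Esrra was lower. The secretory list went the other way, with Apof and Cldn10 lower in Naive of 3 tested, by -1.36 and -0.89 on the log2 scale (limma adjusted p = 2.53e-06 and 2.01e-06). For Resist-Mac vs. Naive-Mac the counts were 33 higher and 7 lower of 79 androgen response genes, 12 and 1 of 24 glucocorticoid response genes, 10 and 0 of 18 chaperones and coregulators, 6 and 0 of 7 steroid receptors, 8 and 0 of 10 lineage factors and 1 and 0 of 3 secretory genes.

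The difference between the effect of enzalutamide in tumors with macrophages (Resist over Naive) and in depleted tumors (Resist-Mac over Naive-Mac) was tested across all 4 groups, where 51.9% of 9876 genes passed an adjusted p under 0.05 (38.3% of the genes tested with a negative difference), and the median difference was -0.28. For Foxa1 the difference was -1.25 on the log2 scale (SE 0.28, 95% interval -1.83 to -0.67, limma adjusted p = 0.000766), and for Fkbp5 -1.28 (SE 0.19, 95% interval -1.68 to -0.88, limma adjusted p = 1.44e-05). For Hoxb13 it was 0.73 (SE 0.37, 95% interval -0.03 to 1.49, limma adjusted p = 0.102), so that its rise in Resist vs. Naive was not shown to differ from the change in depleted tumors. With median-ratio scaling and quantile normalization the Hoxb13 difference passed, at 1.02 and 1.21. For Tsc22d3 it was -0.05 (95% interval -0.44 to 0.34, limma adjusted p = 0.845). Batches 1, 2 and 3 cannot be told apart from these effects.

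Across the 4 groups the mean level of Fkbp5 ran from 347 FPKM in Naive through 340 in Resist and 291 in Resist-Mac to 126 in Naive-Mac, and only the last step passed a test. Foxa1 ran from 122 FPKM in Resist-Mac through 98.7 in Resist and 87.5 in Naive to 48.3 in Naive-Mac, where again only the last step passed. Hoxb13 ran from 7.19 FPKM in Resist-Mac through 6.54 in Resist and 5.82 in Naive-Mac to 2.66 in Naive. Resist-Mac and Resist did not differ beyond their spread, and Resist and Naive-Mac, neighbors in this order, were not compared. Tsc22d3 stayed between 132 and 143 FPKM in all groups.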

How the data were processed

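Bulk RNA-seq of sorted tumor cells was analysed in 20 libraries (4 groups of 5). The authors deposited FPKM for Resist-Mac and Naive-Mac libraries and log2(FPKM + 1) for Naive and Resist libraries. The deposited log2 values were turned back to FPKM, which gave 2 decimals for 100% of 174850 values (tolerance 0.0001). Bowtie2 and mm9 are named in the submitters' processing notes, and the quantification tool and annotation are not given in the sources used here. The authors' BGI_novel genes (752, holding 8.45% of the FPKM of Naive and Resist libraries) were left out. Of the identifiers kept, 16613 of 16733, 14053 of 14077 (Resist-Mac) and 15827 of 15867 (Naive-Mac) matched a symbol in RefSeq GRCm38.p6, which also gave the promoters and whose build differs from that of the files. Lengths and GC content are those of a gene's longest GENCODE transcript.

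Changes were fitted on log2(FPKM + 1) by limma 3.58.1 under R 4.3.3 with a variance trend, on the groups compared only. The study's own comparison used NOISeq, which was not run here. The tables come from separate batches and were not renormalized together. For members below the filter, exact two-sided permutation tests on mean FPKM were run (scipy 1.17.1, Python 3.11.15). The procedure was tested on simulated data: of 100 genes given a log2 change of 1 for Resist vs. Naive, 91% were called, and 2 of 10119 genes were called falsely in that simulation. Replicate numbers did not pair the samples.

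The 8 members were named throughout. From each list, up to 3 called genes with the largest change in each direction are the named ones, or the 2 most abundant genes where none was called, and the text gives a selection of them. Members and lists were chosen with earlier results of these data known. Alternatives were a pseudocount of 0.1, a mean of at least 5 FPKM or no filter, median-ratio scaling, quantile normalization, a spline correction for transcript length and GC content (4 degrees of freedom), a fold change over 2, no trend, all groups in one fit, the replicate block, the mean of log2(FPKM + 1) for low members, and leaving out each library. The androgen receptor's own transcript and 1 gene that this rule names are not reported here.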

Additional observations from a re-analysis of the deposited data

Results flagged for a closer look

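In 4 of the 26 groups of 5 libraries, 1 library lay far from the others by Dixon's criterion. For normally distributed values, chance meets it in about 1 group of 20, a rate that need not hold for values near 0. Tmprss2 in Naive, at 0 throughout, could not be tested, and in Resist its single value above 0 meets the criterion by construction. For Foxa1 these were a Resist library at 134.43 FPKM and a Naive-Mac library at 88.16 FPKM. For Nr3c1 it was a Naive library at 0.22 FPKM, and for Tmprss2 a Resist library at 0.05 FPKM where the others are listed at 0.

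The effect of enzalutamide differed between tumors with and without macrophages by -1.25 for Foxa1 and -1.28 for Fkbp5 (log2, limma adjusted p = 0.000766 and 1.44e-05). These were 2 of 4 members tested, and 51.9% of 9876 genes passed the same test, with a median difference of -0.28. The 3 batches cannot be told apart from these differences.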

How the results depend on the processing

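Hoxb13 stayed called in Resist vs. Naive in every setting that tested it, between 0.89 (quantile normalization) and 1.28 (pseudocount of 0.1) with all libraries, and between 0.98 and 1.08 without single libraries. With a mean of at least 5 FPKM Hoxb13 was not tested, so that 0 members and 392 genes were called. A fold change over 2 left 219 genes for Resist vs. Naive, 481 for Resist vs. Resist-Mac, 3659 genes and 1 member (Fkbp5) in Naive vs. Naive-Mac, and 2335 in Resist-Mac vs. Naive-Mac, by its construction. In Resist vs. Resist-Mac the length and GC correction left 898 genes and quantile normalization called 1 member, Fkbp5, and the cause was not tested in either.

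Directions of values that passed no test turned with quantile normalization for Fkbp5 in Resist vs. Naive (0.02), for Foxa1 in Resist vs. Resist-Mac (0.03) and Hoxb13 in Resist-Mac vs. Naive-Mac (-0.35), with the length and GC correction for Hoxb13 in Resist vs. Resist-Mac (0.14), and with median-ratio scaling for Tsc22d3 in Naive vs. Naive-Mac (-0.20), Resist-Mac vs. Naive-Mac (-0.45) and the difference of effects (0.31), and for Hoxb13 in Resist-Mac vs. Naive-Mac (-0.06). Median-ratio scaling moved the median of all genes from 0.23 to -0.05 in Naive vs. Naive-Mac and from 0.34 to -0.05 in Resist-Mac vs. Naive-Mac. The calls, 3691 higher and 2177 lower and 3631 higher and 878 lower, became 2862 and 3073, and 2165 and 2293. Quantile normalization gave 2660 and 2845, and 1848 and 1784. In the difference of effects 1338 higher and 3783 lower became 2712 and 2733 with median-ratio scaling and 2167 and 2394 with quantile normalization. In Resist vs. Naive, 531 higher and 112 lower became 382 and 163, and in Resist vs. Resist-Mac 976 and 1205 became 999 and 816 with quantile normalization. The length and GC correction gave 3147 higher and 1016 lower in Naive vs. Naive-Mac and 731 and 3808 in the difference of effects.

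Leaving out single libraries gave 527 to 840 genes for Resist vs. Naive, 2006 to 2450 for Resist vs. Resist-Mac, 5699 to 5990 in Naive vs. Naive-Mac, 4209 to 4865 in Resist-Mac vs. Naive-Mac and 4806 to 5511 in the difference of effects, with 1, 0, 2 to 3 and 2 members called in the 4 comparisons. Without the third Resist-Mac or the first Naive-Mac library the Hoxb13 difference of effects passed, at 0.89 and 0.96. Values that changed sign ranged from -0.10 to 0.03 (Fkbp5) and -0.13 to 0.05 (Tsc22d3) for Resist vs. Naive, -0.19 to 0.12 (Hoxb13) and -0.03 to 0.17 (Tsc22d3) in Resist vs. Resist-Mac, -0.09 to 0.11 (Tsc22d3) in Resist-Mac vs. Naive-Mac and -0.15 to 0.05 (Tsc22d3) in the difference of effects. For Nr3c1 the difference in FPKM ranged from -0.0035 to 0.0565 in Resist vs. Naive and -0.0705 to 0.0235 in Naive vs. Naive-Mac.

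Replicate numbers are shared in the labels, but the deviations of same-numbered libraries from their group means correlated at -0.160 to -0.028 in Resist vs. Naive, -0.269 to 0.356 in Resist vs. Resist-Mac, -0.161 to 0.226 in Naive vs. Naive-Mac and -0.376 to 0.323 in Resist-Mac vs. Naive-Mac, and not every pair was above 0.1 in any of them, nor did every library correlate best with its own number. They were taken to share only a number. With the replicate block 624, 2228, 5888, 4534 and 5184 genes and 1, 0, 3 and 2 members were called, and no member's call changed. The unknown depth limits Nr3c1, Pmepa1 and Tmprss2 most, and the part of the unknown quantification and annotation in their low values was not tested.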
